A study of Mus musculus with 9 samples.

Results

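Lipid droplet and lipolysis genes were examined in 9 lists of chromatin peaks from mouse fat. The 10 genes were Pnpla2, Lipe, Mgll, Abhd5, G0s2, Plin1, Plin4, Plin5, Cidec and Bscl2, out of 21938 protein-coding genes in the GENCODE M21 annotation. They were picked by name and not by a rule on a measured value, though with earlier results of these data known. A promoter peak was any peak within 1 kb of any annotated transcription start site of the gene, and a region peak was any peak in the gene body plus 20 kb on each side. The strength of a peak was given by its −log10 q and by its percentile, which is the share of peaks in the same list with a lower −log10 q. The principal start is the start of the transcript that the annotation tags as the main protein product, and positions are in bp from it, negative upstream, in the direction of the gene.

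Fat cells keep triglyceride in a lipid droplet, an oil core under a single layer of phospholipid and coat proteins. When noradrenaline reaches the cell in the cold, lipases cut fatty acids from the stored triglyceride step by step, and the freed fatty acids feed the mitochondria of thermogenic cells. Coat proteins and small cofactors decide how much of the core the lipases can reach, and other droplet proteins set how many droplets form and how large they grow. Ets1 is a transcription factor of the ETS family, which binds DNA around a GGAA core, and H3K27ac is an acetyl mark on histone H3 at active promoters and enhancers.

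Ets1 was profiled by CUT&Tag, in which an antibody tethers a transposase to its target, in beige adipocytes (grown for 6 days from the stromal vascular fraction of C57BL/6J mice aged 3 to 4 weeks), in mature adipocytes of inguinal white fat (iWAT) of mice held for 7 days in the cold (CS), and in the same cells of mice held at room temperature (RT). H3K27ac was profiled the same way in iWAT adipocytes of EA+/+ mice, which carry an Ets1 knock-in behind a loxP-flanked stop at the Hipp11 locus and Adipoq-cre, against EC+/+ littermates with the ki/ki allele and no Cre. H3K27ac and open chromatin (ATAC) were both profiled in iWAT adipocytes of EAKO mice, Ets1 f/f with Adipoq-cre, against Flox mice with the Ets1 f/f alleles alone. The mice of these 8 libraries were males aged 8 to 10 weeks, and those of the CS and RT libraries were wild type. The beige cells also came from males, and all mice were of C57BL/6J background. The Adipoq promoter drives Cre in adipocytes only, so other cells carried over in the floating fraction kept their Ets1 alleles unrecombined.

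A single library stood for each group, so differences are described without a test and how far animals vary is not known. The lists held between 4056 peaks (RT Ets1) and 88977 peaks (Flox ATAC), covering 1.05 to 73.4 Mb. Read depth cannot be seen in a peak list, and intervals given for shares cover counting error only. The study reports a read count for each library, which was not used here. The gene Ets1 itself had a promoter peak in EAKO as in Flox, at −log10 q 26.6 against 49.6 for H3K27ac and 86.8 against 115.3 for ATAC. A peak at a promoter does not check the deletion of an exon. Of 10 adipocyte marker genes, 4 to 7 had a promoter peak in the H3K27ac and ATAC lists, and Adipoq and Cfd had none in any of the 9 lists. Of 7 markers of adipose stem and progenitor cells, 3 in EA+/+ and 5 in EC+/+ had an H3K27ac promoter peak, against 7 in both EAKO and Flox. Over all genes the share with a promoter peak ran from 50.4% to 67.7% in the H3K27ac and ATAC lists. The H3K27ac lists of EAKO (74682 peaks) and Flox (86834) were longer than those of EA+/+ (38484) and EC+/+ (33713). Endothelial markers with a promoter peak numbered 2 to 5 of 6 in the H3K27ac and ATAC lists, and macrophage markers 2 to 3 of 8. In the same lists mural markers numbered 1 to 3 of 4, lymphocyte markers 1 of 5 and skeletal muscle markers 0 to 2 of 4. The part of such cells in the peaks described here was not tested, and in bulk chromatin fewer cells of a type and less signal per cell cannot be told apart.

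Ets1 promoter peaks were found at 6 of the 10 genes in beige adipocytes, 4 in CS adipocytes and 0 in RT adipocytes. Over all protein-coding genes the shares were 46.4%, 32.7% and 4.06%, so the counts of 6, 4 and 0 stood near what the size of each list gave. H3K27ac promoter peaks were found at 7 of the 10 genes in each of EA+/+, EC+/+, EAKO and Flox, where all genes gave 50.4%, 52%, 60.5% and 63.9%. ATAC promoter peaks were found at 9 of the 10 genes in both EAKO and Flox, against 66% and 67.7% of all genes. The genes with a peak changed from list to list even where the count stayed at 7. Among 26 other droplet genes chosen for the same pathway, 17 had an Ets1 promoter peak in beige, 13 in CS and 0 in RT, and 22 had an ATAC promoter peak in both EAKO and Flox.

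**Figure D1:**
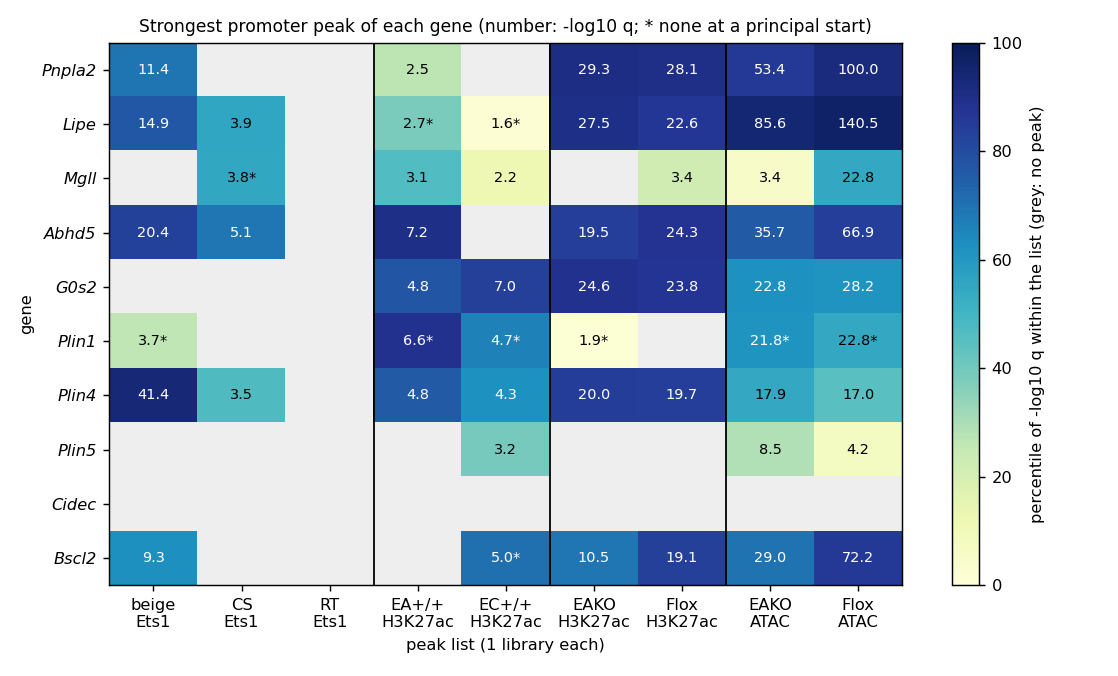
Strongest promoter peak of each of the 10 genes (rows) in each of the 9 peak lists (columns, 1 library each). The number in a cell is the −log10 q, the colour is the percentile of that value within its list, grey means no promoter peak, and a star means that no promoter peak lay within 1 kb of a principal start. Cidec is grey in all 9 lists, the RT Ets1 column is grey for all 10 genes, and every Plin1 cell carries a star.

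Pnpla2 encodes adipose triglyceride lipase (ATGL), the enzyme that takes the first fatty acid from triglyceride. The gene lies on chromosome 7 at 141455198 to 141460743 of mm10, plus strand. Its promoter had an Ets1 peak in beige adipocytes with −log10 q 11.4 (percentile 69.2, summit at -63 bp), and none in CS or RT. H3K27ac stood there at −log10 q 2.48 in EA+/+ (percentile 26.6), with no peak in EC+/+. In the other H3K27ac pair the promoter was strong in both libraries, at 29.3 in EAKO and 28.1 in Flox (percentiles 90.8 and 89.7). ATAC gave −log10 q 53.4 in EAKO, against 100.0 in Flox, which are percentiles 85.9 and 91.8. The Pnpla2 region is dense in other genes, and 8 of its 11 merged sites lay at promoters of neighbours. The Rplp2 promoter, a ribosomal protein gene upstream of Pnpla2, held a peak in all 9 lists, with Ets1 percentiles of 95.9 in beige, 77.8 in CS and 33.5 in RT.

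The sequence under the beige Ets1 summit at the Pnpla2 promoter is shown beside a whole ETS motif at Rplp2. The stretches are unlike, since the Pnpla2 window was cut around a summit and the Rplp2 one around the motif. That motif was picked under the Flox ATAC peak, 25 bp from its summit in chromosome coordinates. It lies in the Ets1 peaks of beige, CS and RT, at 164, -80 and 130 bp from their summits, outside the 50 bp windows. Both stretches are mm10, 5′ to 3′. The Pnpla2 window is chr7:141455094-141455194, plus strand, with GGAA or its reverse complement in capitals. The Rplp2 window is chr7:141447532-141447560, minus strand, with the motif CCGGAAG in capitals.
Pnpla2 promoter: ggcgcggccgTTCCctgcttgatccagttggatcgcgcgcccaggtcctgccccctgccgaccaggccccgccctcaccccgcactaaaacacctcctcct
Rplp2 promoter: aaaagggtgcaCCGGAAGgaagacatttc
The core GGAA, searched on both strands in the 50 bp on each side of a summit, was in 65.9% of all beige Ets1 windows, so its presence at Pnpla2 was common to most peaks.

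Lipe encodes hormone-sensitive lipase, which acts mainly on diacylglycerol. It lies on chromosome 7 at 25379527 to 25398710, minus strand. The strongest CS Ets1 promoter peak had −log10 q 3.87 (percentile 55.4) with its summit at 613 bp, inside the first exon of the principal transcript, and RT had no Ets1 peak anywhere in the Lipe region. Beige adipocytes had a peak at the same exon (percentile 61.8) and a stronger one at an internal start, 6012 bp into the gene, with −log10 q 14.9 (percentile 76.6). CS had a weaker peak at that internal start too, at percentile 27.4. The first exon carried H3K27ac at −log10 q 27.5 in EAKO and 22.6 in Flox, percentiles 90.0 and 86.6, and ATAC at 85.6 in EAKO and 140.5 in Flox, percentiles 94.2 and 96.8. Neither EA+/+ nor EC+/+ had an H3K27ac peak there. Their Lipe promoter peaks were weak and lay at internal starts, with −log10 q 2.74 in EA+/+ and 1.64 in EC+/+, and none of the 4 EA+/+ region peaks overlapped any of the 3 EC+/+ region peaks. Peaks without overlap were common in this pair, at 60.7% of all EA+/+ peaks and 54.9% of all EC+/+ peaks.

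The whole ETS motif was in the Lipe first exon, within the beige Ets1 peak and 231 bp from its summit in chromosome coordinates. This stretch is chr7:25396006-25396034 of mm10, plus strand, the strand on which the motif reads as CCGGAAG (capitals).
Lipe first exon: tgccccgggagCCGGAAGaacgggcgggc
Lipe was the only member whose RefSeq promoter (GRCm38.p6, 250 bases before to 50 after the start) held CCGGAAG on either strand, where 8.86% of 32851 promoters did. Promoter sequences of all 10 genes were matched by symbol.

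Mgll encodes monoglyceride lipase, which frees the last fatty acid and glycerol. The gene spans chromosome 6 from 88724412 to 88828360, plus strand, and is the longest of the 10 at 103949 bp. Of the member promoters its start had the largest difference of ATAC rank between EAKO and Flox. H3K27ac had −log10 q 3.43 there in Flox (percentile 21.9) and no peak in EAKO. ATAC had −log10 q 3.42 in EAKO, against 22.8 in Flox, percentiles of 5.83 and 54.4 for overlapping peaks. The difference of -48.6 percentile points lay outside the 5th to 95th percentile range of all 14301 genes with an ATAC promoter peak in both lists, which ran from -24.0 to 6.81. In the knock-in pair the same start was higher in EA+/+, at −log10 q 3.14 (percentile 46.6), against 2.16 in EC+/+ (percentile 12.1).

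The Mgll region held more peaks than that of any other member in both EAKO and Flox, and it is also the longest region. H3K27ac peaks of EAKO covered 4.46% of it, where the members ran from 3.19% (Plin1) to 17.5% (Pnpla2). Of the 10 EAKO H3K27ac region peaks of Mgll 3 overlapped no Flox peak, where 26% of the whole EAKO list did not. Of its 16 Flox peaks 8 overlapped no EAKO peak, where 35.9% of the whole Flox list did not. An intronic site about 22055 bp from the start held an Ets1 peak in beige at −log10 q 35.7 (percentile 92.1) and in CS at 2.05 (percentile 10.6), and none in RT. That site was open and acetylated, with ATAC percentiles of 92.4 in EAKO and 88.4 in Flox and H3K27ac percentiles of 82.7 in EAKO and 83.7 in Flox. EA+/+ and EC+/+ had no H3K27ac peak there. The only Ets1 promoter peak of Mgll was in CS, at −log10 q 3.8, with its summit 97769 bp into the gene. It fell just inside the promoter window of a short transcript, with the summit at -949 bp from the start of that transcript. That peak overlapped neither a Flox ATAC nor a Flox H3K27ac peak. The strongest Ets1 peak of the region in all 3 Ets1 lists was past the end of Mgll at the promoter of Abtb1, with percentiles of 99.1 in beige, 97.8 in CS and 92.0 in RT.

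The Mgll intronic site and the Abtb1 promoter are shown because Ets1 peaks of both beige and CS adipocytes fell on them. The Mgll stretch is chr6:88746417-88746517, plus strand, 50 bp on each side of the CS summit, with GGAA or its reverse complement in capitals. The Abtb1 stretch is chr6:88842165-88842193, plus strand, with CCGGAAG in capitals. In chromosome coordinates this motif lies -94 bp from the beige Ets1 summit, -199 bp from the CS summit and 42 bp from the RT summit.
Mgll intron: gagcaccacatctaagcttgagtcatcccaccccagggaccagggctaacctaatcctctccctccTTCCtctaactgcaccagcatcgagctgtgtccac
Abtb1 promoter: gaagagcttcaCCGGAAGagcagttcgct

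Abhd5 encodes CGI-58, the protein that switches on ATGL when it is freed from the droplet coat. It lies on chromosome 9 at 122351608 to 122381524, plus strand. Ets1 peaks stood at its start in beige with −log10 q 20.4 (percentile 83.4) and in CS with 5.09 (percentile 69.0), and RT had none. The CS value was the highest of the 4 members with a CS promoter peak. H3K27ac at the promoter had −log10 q 7.16 in EA+/+ (percentile 90.2), while EC+/+ had no promoter peak and a single region peak in all. EAKO and Flox both had H3K27ac and ATAC at the first start, and a further site at an internal start 12795 bp downstream. At the first start the ATAC percentile was 64.7 in EAKO and 84.2 in Flox, and at the internal start it was 76.0 in EAKO and 78.3 in Flox.

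The part of the CS Ets1 peak just upstream of the Abhd5 start, chr9:122351507-122351607 on the plus strand, is shown with GGAA or its reverse complement in capitals.
Abhd5 promoter: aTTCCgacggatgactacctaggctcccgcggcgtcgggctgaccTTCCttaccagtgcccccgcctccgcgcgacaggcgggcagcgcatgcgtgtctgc
It holds the core at 2 places and no whole CCGGAAG.

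G0s2 encodes a small inhibitor of ATGL. The gene is 1057 bp long, on chromosome 1 at 193272161 to 193273217, minus strand, and its peaks also fall in a promoter window of Lamb3, so the 2 genes cannot be told apart here. None of the 3 Ets1 lists had a promoter peak. The region held a single Ets1 peak, in beige, at 10963 bp and percentile 71.9. H3K27ac was present in all 4 lists, with −log10 q 4.83 in EA+/+ and 7.02 in EC+/+ (percentiles 77.4 and 83.8), and 24.6 in EAKO and 23.8 in Flox (percentiles 88.3 and 87.4). ATAC stood at 22.8 in EAKO and 28.2 in Flox, percentiles 62.4 and 61.2. G0s2 was thus the member with the smallest change of ATAC rank between EAKO and Flox, at 1.18 percentile points.

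Plin1 encodes perilipin 1, the main droplet coat protein of fat cells and the one that holds CGI-58 until the lipolytic signal comes. It lies on chromosome 7 at 79720218 to 79732903, minus strand. No list had a peak within 1 kb of its principal start. The best promoter peaks counted for Plin1 were at internal starts, with summits between 2735 and 9979 bp into the gene. At the farther of these, H3K27ac had −log10 q 6.59 in EA+/+ and 4.65 in EC+/+, percentiles 88.4 and 66.2, and the site was absent from EAKO and Flox. At the nearer, beige Ets1 had a peak of percentile 26.3, EAKO H3K27ac a peak of percentile 1.8 with none in Flox, and ATAC had percentiles of 61.0 in EAKO and 54.4 in Flox. CS and RT adipocytes had 0 Ets1 peaks in the whole Plin1 region.

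Plin4, another perilipin, coats small and newly formed droplets. It lies on chromosome 17 at 56100591 to 56109803, minus strand. The Plin4 promoter was the member promoter found in the largest number of lists, 8 of 9, and RT Ets1 was the list without it. Ets1 had −log10 q 41.4 in beige (percentile 93.7), the strongest Ets1 promoter peak of any member, and 3.53 in CS (percentile 47.2), with overlapping peaks at -109 and -60 bp. H3K27ac stood at 4.81 in EA+/+ and 4.32 in EC+/+, percentiles 75.9 and 62.4. In the knock-out pair it was at 20.0 in EAKO and 19.7 in Flox, percentiles 84.7 and 84.3. ATAC had −log10 q 17.9 in EAKO and 17.0 in Flox, percentiles 54.5 and 45.3.

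The 101 bases at the CS Ets1 summit of Plin4, chr17:56109813-56109913 on the minus strand, are shown because this promoter was the strongest member promoter of the beige list. The beige summit lies at the upstream edge of this stretch, so the bases around the beige summit are shown only in part. The 101 bases hold no GGAA on either strand and are therefore in lower case throughout.
Plin4 promoter: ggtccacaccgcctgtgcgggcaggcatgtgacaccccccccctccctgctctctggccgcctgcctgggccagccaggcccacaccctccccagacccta

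Plin5 encodes a perilipin that ties droplets to mitochondria in oxidative tissues. It lies next to Plin4 on chromosome 17, at 56111601 to 56117596, minus strand, and the regions of the pair overlap. No Ets1 list had a Plin5 promoter peak. H3K27ac was found there in EC+/+ alone, at −log10 q 3.23 (percentile 39.3). ATAC was weak in both lists, at −log10 q 8.54 in EAKO and 4.16 in Flox, percentiles 28.6 and 7.1. This difference of 21.5 percentile points was the largest toward EAKO among the 9 members with ATAC promoter peaks in both lists, and lay outside the 5th to 95th percentile range given above for Mgll.

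Cidec encodes a protein of droplet contacts through which small droplets pass their lipid to large ones, and it is known for the single large droplet of white fat cells. It lies on chromosome 6 at 113424634 to 113435760, minus strand. Cidec had no promoter peak in any of the 9 lists, ATAC included, where 66% of all genes in EAKO and 67.7% in Flox had an ATAC promoter peak. Its gene body held peaks in 2 lists only, an intronic site with beige Ets1 at percentile 38.5 and Flox ATAC at percentile 36.4. Strong peaks stood on both sides, at promoters of neighbours. Upstream, the Jagn1 promoter had Ets1 percentiles of 67.9 in beige and 60.5 in CS with none in RT, H3K27ac percentiles of 90.8 in EA+/+, 90.1 in EC+/+, 94.6 in EAKO and 92.8 in Flox, and ATAC percentiles of 89.4 in EAKO and 92.7 in Flox. Downstream, the Rpusd3 promoter had ATAC percentiles of 97.5 in both EAKO and Flox.

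Short stretches around Cidec and Plin1 are shown because the peaks lie elsewhere than at the principal starts of these genes. The Jagn1 stretch is chr6:113442570-113442598, plus strand, and lies under the beige Ets1 peak upstream of Cidec. The Plin1 internal site, chr7:79721473-79721501 on the plus strand, lies under ATAC and H3K27ac peaks of Flox 11300 bp into the gene. Capitals in both mark CCGGAAG. The promoter stretches, from the RefSeq promoters of GRCm38.p6, are chr6:113434944-113434973 for Cidec and chr7:79732816-79732845 for Plin1, both on the minus strand, with a C/EBP motif (TTGCNNAA) in capitals.
Jagn1 promoter: ggatagagaggCCGGAAGttctcccggag
Plin1 internal site: atgacgctgggCCGGAAGaagctgtcgct
Cidec promoter: ggagggctctaTTGCTCAAgggcccatggg
Plin1 promoter: tctgagaggcaTTGCCCAAgattccctgga
Cidec and Plin1 were the 2 members whose RefSeq promoters held TTGCNNAA, a motif of 10.8% of all promoters, and neither stretch lay under a peak of any list.

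Bscl2 encodes seipin, which sits where droplets bud from the endoplasmic reticulum. It lies on chromosome 19 at 8837467 to 8848683, plus strand. Its promoter had an Ets1 peak in beige at −log10 q 9.29 (percentile 62.5), and none in CS or RT. H3K27ac at the first start was absent from EA+/+ and EC+/+, and EC+/+ had a peak at an internal start 3079 bp into the gene with −log10 q 4.98 (percentile 70.6). In the knock-out pair H3K27ac stood at 10.5 in EAKO and 19.1 in Flox, percentiles 68.9 and 83.8. ATAC at the first start had percentiles of 64.6 in EAKO and 85.8 in Flox, and at the internal start 69.9 in EAKO and 58.9 in Flox. The ATAC peaks of both EAKO and Flox at the first start also reach a promoter window of Gng3. Upstream of Bscl2, the shared promoter of Hnrnpul2 and Ttc9c held peaks in all 9 lists, with ATAC percentiles of 99.9 in both EAKO and Flox.

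**Figure D2:**
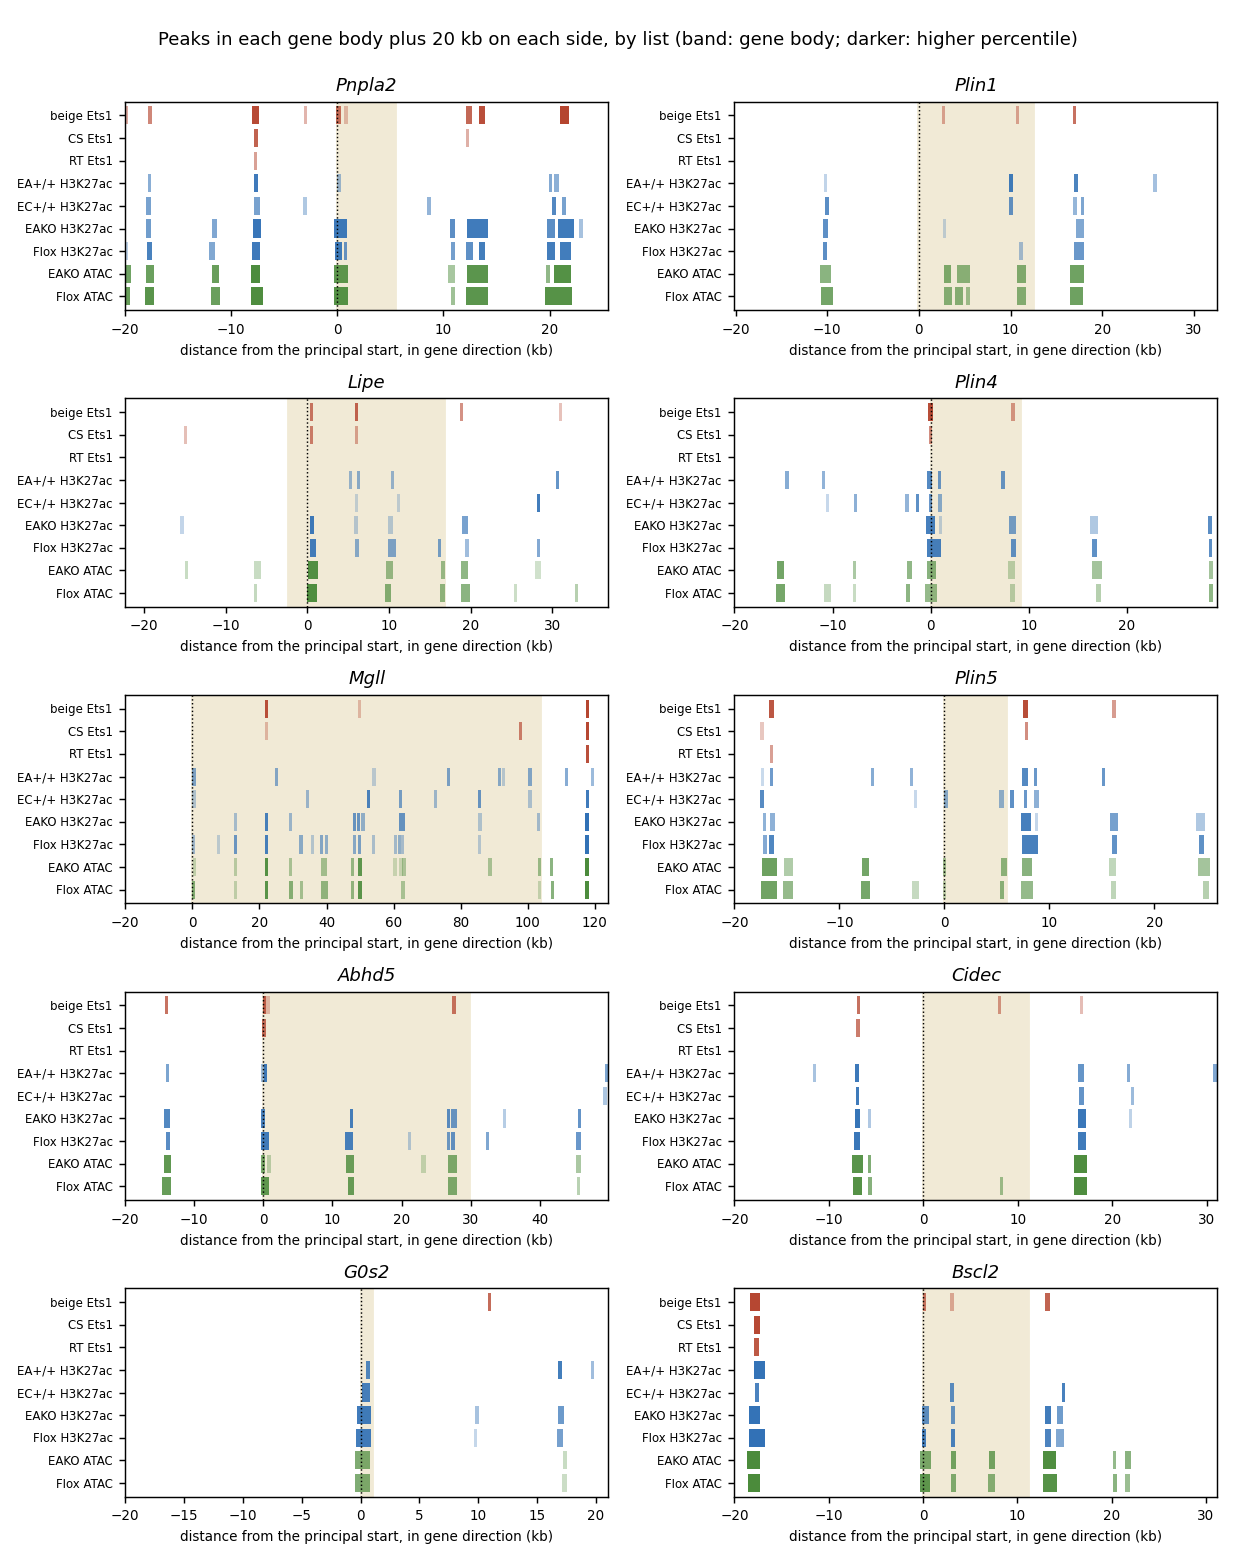
Peaks of the 9 lists (rows) around each of the 10 genes, with the distance from the principal start in kb in the direction of the gene on the horizontal axis and the gene body as a band. Red is Ets1, blue H3K27ac and green ATAC, and a darker bar has a higher percentile within its list. Peaks line up across lists at promoters of neighbouring genes (for example upstream of Bscl2 and past the end of Mgll), while the Cidec and Plin1 starts are empty.

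Between cold and room temperature, the question was where Ets1 lay in adipocytes after cold. Ets1 promoter peaks of Lipe, Mgll, Abhd5 and Plin4 were in the CS list and not in the RT list, as were those of 29.1% of all genes, and no member had the reverse, which 0.428% of all genes did. The CS peaks of these 4 genes ranked between 4602 and 7848 in their list, all past the length of the RT list. When only the 4056 best CS peaks were set against the 4056 RT peaks, 0 of the 10 genes had a CS promoter peak, against 12.8% of all genes with a peak in CS alone. Of the 26 other pathway genes, 13 had such a peak in CS alone of this pair, among them Plin2, a perilipin found in most cell types, Hilpda, an ATGL inhibitor, Aqp7, the glycerol channel of fat cells, and Cav1, the caveolin of the fat cell surface. The remaining 9 were Ddhd2, Fitm2, Tmem159, Rab18, Aup1, Faf2, Spg20, Lipa and Acsl3.

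Over the merged regions of the 10 genes, 10 of 13 CS Ets1 peaks overlapped no RT peak, which is 76.9% (Wilson 95% interval 49.7 to 91.8%), against 88% of all CS peaks. Of 4 RT peaks 1 overlapped no CS peak, 25.0% (4.56 to 69.9%), against 55.9% of all RT peaks. All 4 RT Ets1 peaks in these regions lay at promoters of neighbours (Rplp2, Abtb1, Sema6b and the Hnrnpul2 and Ttc9c pair), and 4 of 4 overlapped Flox ATAC peaks. Of the 13 CS peaks 10 overlapped Flox ATAC peaks, 76.9%, where 53.4% of all CS peaks did.

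Beige and CS Ets1 were set side by side for cultured against tissue cells, and CS enters this comparison and the preceding one alike. Pnpla2, Plin1 and Bscl2 had an Ets1 promoter peak in beige and none in CS, as did 17.1% of all genes, and Mgll alone had the reverse, which 3.39% of all genes did. The Mgll peak is the one near the short transcript far into the gene, and with principal starts alone 0 members had a CS peak without a beige one. Lipe, Abhd5 and Plin4 had a peak in both, and the percentile of the best peak was higher in beige by 21.2, 14.5 and 46.6 points. The Lipe difference sets different peaks against each other, and at the first exon the percentiles were 61.8 in beige and 55.4 in CS. Of 6434 genes with a peak in both, 67.4% were higher in beige, and the middle 90% of differences ran from -33.1 to 56.8 points, which takes in all 3. Of 34 beige region peaks 24 overlapped no CS peak, 70.6% (53.8 to 83.2%), against 78.7% of all beige peaks. Of 13 CS region peaks 3 overlapped no beige peak, 23.1% (8.18 to 50.3%), against 56% of all CS peaks. Plin3, Pnpla3, Fabp4 and Cavin1 were the other pathway genes with a promoter peak in beige and not in CS. The cultured cells came from younger mice and another procedure, so cell type, culture and age cannot be told apart.

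The knock-in pair differed at the promoters of 4 members. Pnpla2 and Abhd5 had an H3K27ac promoter peak in EA+/+ and none in EC+/+, which 7.33% of all genes did. Plin5 and Bscl2 had the reverse, which 8.89% of all genes did. The EA+/+ peaks were at −log10 q 2.48 for Pnpla2 and 7.16 for Abhd5, and the EC+/+ peaks at 3.23 for Plin5 and 4.98 for Bscl2. Of the 5 members with promoter peaks in both, the percentile was higher in EA+/+ for Lipe, Mgll, Plin1 and Plin4, by 36.2, 34.5, 22.2 and 13.5 points, and for G0s2 the difference was -6.45 points. Over all 9450 genes with both, the middle 90% of differences ran from -46.2 to 42.7 points, which takes in every one of these, and 47.6% of those genes were higher in EA+/+. The Lipe difference sets peaks at different internal starts against each other. Of 42 EA+/+ region peaks 26 overlapped no EC+/+ peak, 61.9% (46.8 to 75.0%), against 60.7% of the whole list. Of 36 EC+/+ region peaks 20 overlapped no EA+/+ peak, 55.6% (39.6 to 70.5%), against 54.9% of the whole list. In this pair Aqp7 had a promoter peak in EA+/+ and not in EC+/+, and Abhd6, a monoacylglycerol lipase, in EC+/+ and not in EA+/+.

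The knock-out pair was closer. Plin1 alone had an H3K27ac promoter peak in EAKO and none in Flox, as did 1.75% of all genes, and Mgll alone had the reverse, as did 5.18% of all genes. The Plin1 peak was weak (−log10 q 1.91) and at an internal start. Of the other pathway genes, Cidea, a relative of Cidec found in thermogenic fat, had a promoter peak in Flox at −log10 q 2.04 and none in EAKO. Bscl2 was lower in EAKO than in Flox by a difference of -14.9 percentile points, and the other 5 members with peaks in both lay between -3.47 and 3.4 points, where the middle 90% of all genes ran from -27.7 to 10.1. For Abhd5 the best peaks were different peaks, and at its first start the percentiles were 81.6 in EAKO and 87.7 in Flox. Of 53 EAKO region peaks 9 overlapped no Flox peak, 17.0% (9.2 to 29.2%), against 26% of the whole list. Of 61 Flox region peaks 14 overlapped no EAKO peak, 23.0% (14.2 to 34.9%), against 35.9% of the whole list.

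For ATAC no member had a promoter peak in EAKO or in Flox alone, where 0.784% of all genes had one in EAKO alone and 2.54% in Flox alone. Of 63 EAKO region peaks 5 overlapped no Flox peak, 7.94% (3.44 to 17.3%), against 8.98% of the whole list. Of 61 Flox region peaks 5 overlapped no EAKO peak, 8.2% (3.55 to 17.8%), against 16.6% of the whole list. All 10 of these single peaks lay outside promoter windows. The percentile of the best promoter peak was lower in EAKO than in Flox for Pnpla2, Lipe, Mgll, Abhd5 and Bscl2, and higher in EAKO for G0s2, Plin1, Plin4 and Plin5. For Abhd5 and Bscl2 the best peaks of the 2 lists were different peaks, and ranked by fold enrichment Abhd5 was higher in EAKO, at percentile 80.8, against 70.4 in Flox. The count of 4 of 9 higher in EAKO stood beside 37.0% of all genes, and the median over the 9 was -2.59 points, against -1.2 over all genes. Apart from Mgll and Plin5, only Plin4 with 9.26 points lay outside the range of the middle 90% of genes. That range was not matched for peak rank. Over all ATAC peaks shared by the lists the middle 90% ran from -25.9 to 15.3 points, which takes in Plin4 but not Mgll or Plin5. By fold enrichment the percentiles in EAKO and Flox were 43.4 and 40.2 for Plin4, 10.5 and 55.3 for Mgll, and 21.6 and 5.3 for Plin5.

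**Figure D3:**
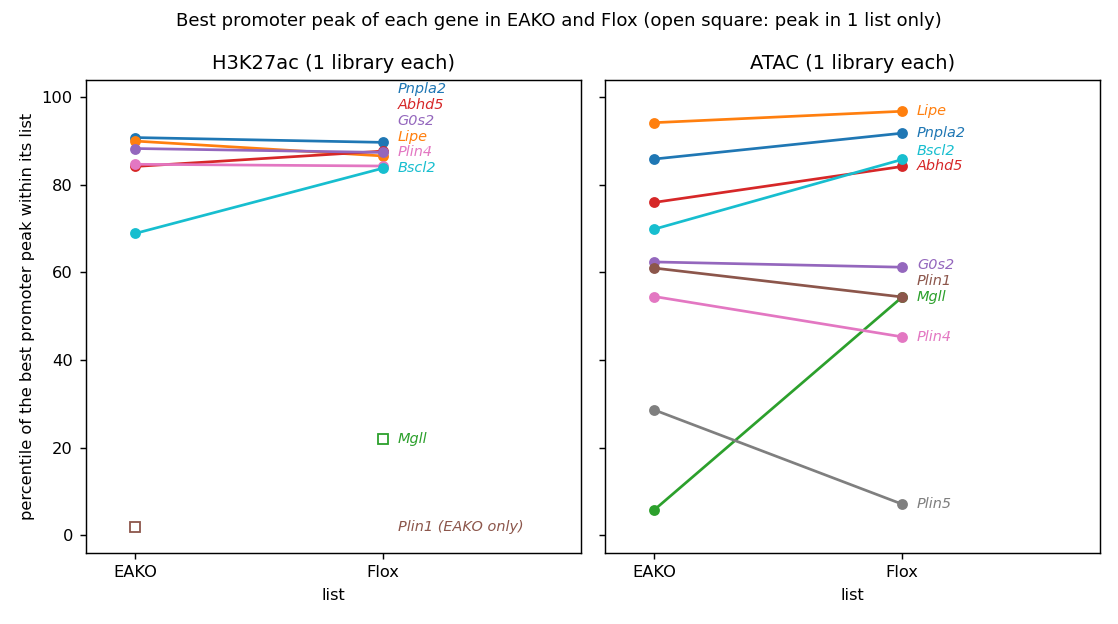
Percentile of the best promoter peak of each gene within its list (vertical axis), EAKO beside Flox, for H3K27ac (left) and ATAC (right), 1 library each. Lines join the values of a gene with a peak in both lists, and open squares are peaks found in 1 list only. Mgll stands at 5.83 in EAKO and 54.4 in Flox for ATAC, and at 21.9 in Flox with no EAKO peak for H3K27ac.

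**Figure D4:**
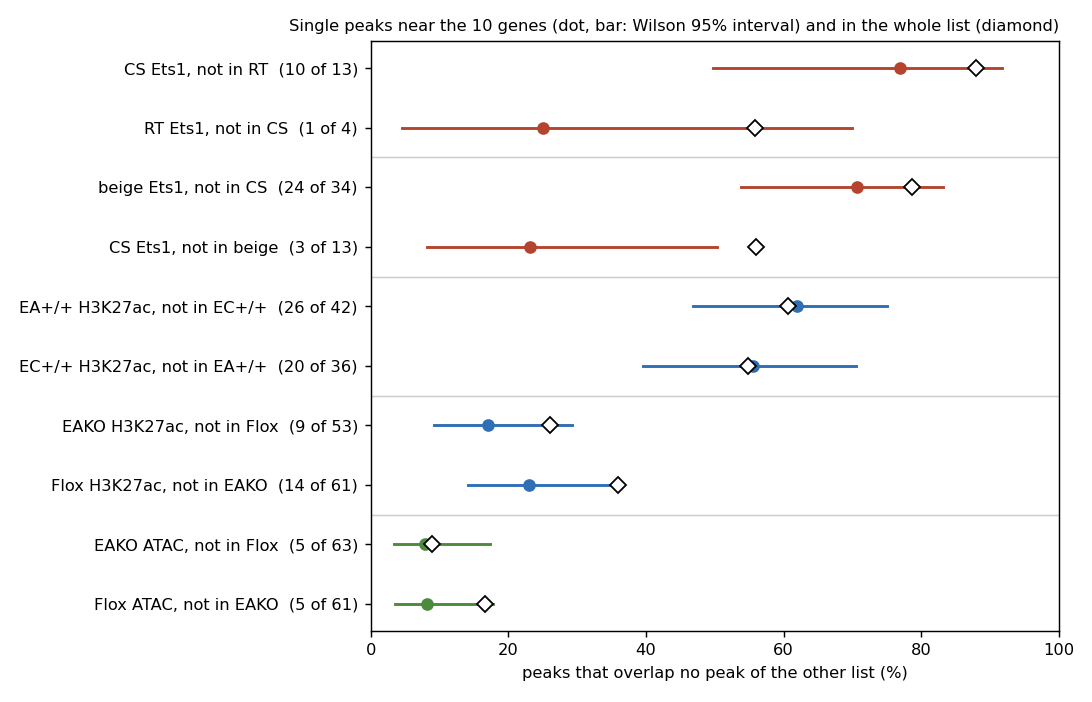
Share of peaks that overlap no peak of the other list (horizontal axis, percent), for peaks near the 10 genes (dots, with Wilson 95% intervals for counting error) and for the whole list (open diamonds). The dots of the ATAC comparison are the lowest, at 7.94% and 8.2%, and the value for the whole list lies outside the interval in 2 rows, CS Ets1 peaks absent from beige (23.1% against 56%) and Flox H3K27ac peaks absent from EAKO (23.0% against 35.9%). In these rows 11 of 13 and 34 of 61 region peaks lay at promoters, and no whole-list share of promoter peaks was counted. The gaps are therefore not shown to be particular to the 10 genes.

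The peaks of all lists merged to 108 sites over the regions of the 10 genes. Of these 39 were found in 1 list only and 3 in all 9 lists. The same merging was not done over all genes, so these counts are not shown to be particular to the 10 genes. The 3 sites in all 9 lists were the promoters of Rplp2, Sema6b and the Hnrnpul2 and Ttc9c pair. None of the 17 sites at member promoters was in all 9 lists, as RT Ets1 had a promoter peak at 0 of the 10 genes. At Sema6b the CS Ets1 peak overlapped neither the RT nor the beige Ets1 peak, and wider peaks of other lists joined them into the site. Each of the 10 genes had at least 1 region peak in every H3K27ac and ATAC list, as did 74.6% (EC+/+) to 83.7% (Flox ATAC) of all genes. The median number of region peaks per member was 7 in both ATAC lists, against 4 over all genes, and for H3K27ac it was 4.5 in EA+/+, 3.5 in EC+/+ and 5 in both EAKO and Flox, against 2, 2, 3 and 4 over all genes.

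The ETS motif was counted under the summits of these regions. CCGGAAG, searched on both strands in the 50 bp on each side of the summit, was in 1 of 34 beige windows (2.94%), 0 of 13 CS windows and 1 of 4 RT windows, where all windows of the lists gave 3.34%, 2.75% and 0.592%. A count of 0 of 13 allows a share of up to 22.8% (Wilson 95% interval). The beige window was at Jagn1 and the RT window at Abtb1. Searched over the whole length of each peak, it was in 7 of 34 beige region peaks (20.6%), 2 of 13 in CS (15.4%) and 2 of 4 in RT, against 9.11%, 9.65% and 2.34% of all peaks of these lists. The region peaks were wider in the median than those of the whole list, at 308 against 262 bp in beige, 257 against 249 bp in CS and 369 against 215 bp in RT. In the Flox ATAC list 5 of 61 windows held it (8.2%), against 1.75% of all windows, and these 5 were at promoters of Rplp2, Jagn1, Abtb1 and Pex11a with Wdr93, and at the Plin1 internal site shown above. A PPAR DR1 motif (AGGNCA and AGGNCA with 1 base between them) was in 0 of 61 Flox ATAC windows, which allows a share of up to 5.92%, against 0.124% of all windows, and TTGCNNAA in 0 of 61, against 5.45%. An NFI motif (TTGGC and GCCAA with 5 bases between them) was in 0 of 61, against 0.0258%. Flox H3K27ac windows held CCGGAAG in 3 of 61 (4.92%), against 1.48% of all windows. A match is a description of the letters and not of a bound site.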

How the data were processed

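Ets1 and H3K27ac were profiled by CUT&Tag and open chromatin by ATAC in 9 libraries, 1 per group (the labels title the Ets1 and H3K27ac libraries ChIP, and the methods describe CUT&Tag). The authors trimmed reads with trimmomatic, aligned them with BWA to mm10 and called peaks per library with MACS2 at a q-value under 0.05. Whether MACS2 had a control library is not given in the sources used here. The deposited lists give each peak's score (−log10 q times 10), fold enrichment (a linear ratio), −log10 p, −log10 q and summit offset. These values depend on depth and background, so they were ranked within a list and never divided between lists.

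The promoter window reached 1 kb to either side of the 93513 starts of 21938 protein-coding genes (GENCODE M21, same build). Regions were gene bodies plus 20 kb on each side, 571.7 kb in 9 merged stretches, since those of Plin4 and Plin5 overlap. Peaks that met by 1 bp or more were shared. Shares carry Wilson 95% intervals (scipy 1.17.1), which cover counting error only. Sequences were read from GRCm38.p6, in which the 16 RefSeq promoters of the members were identical. The overlap and motif searches were tested on simulated data. All 10 members are described. Other pathway genes are named where their promoter peak was in 1 list of a comparison. The members and lists were chosen with earlier results of these data known. Alternatives covered the promoter window, principal starts, the q threshold, list size, overlap, flank, peaks outside promoters, ranking by fold enrichment and the motif window and letters.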

Additional observations from a re-analysis of the deposited data

How the results depend on the processing

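Of 167 recomputed values, 137 kept their value within the limits set (1.5 times a count, or the interval or spread of a share or rank) and 30 moved. A count was judged by its size and not by its genes, and intervals over few peaks were wide. At −log10 q of at least 3, the members with an H3K27ac promoter peak in EA+/+ and not in EC+/+ were Mgll and Abhd5. Without that threshold they were Pnpla2 and Abhd5. With as many best peaks as the smallest list of the assay, members with an Ets1 promoter peak numbered 1 in beige and 0 in CS. With lists of equal size 0 had one in CS and not in RT, against 12.8% of all genes. With principal starts only, EC+/+ had 4 members with a promoter peak, 1 of them without one in EA+/+, and 0 members had a peak in CS without beige or in EAKO H3K27ac without Flox. With a 3 kb window 1 member had a peak in EA+/+ and not in EC+/+ and 0 in EAKO H3K27ac and not in Flox, and the last was also 0 at −log10 q of at least 3.

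The share of CS region peaks absent from RT was 0% with equal lists (0 of 3, against 72.8% of all CS peaks). It was 100.0% over gene bodies alone (6 of 6) and 100.0% outside promoters (2 of 2). The share of RT peaks absent from CS was 0% at −log10 q of at least 3 (0 of 2). Beige peaks absent from CS made up 52.4% with equal lists, against 64.5% of all beige peaks. Outside promoters the single shares were 90.9% for beige against CS (10 of 11), 89.5% in EA+/+ (17 of 19) and 84.6% in EC+/+ (11 of 13). They were 31.6% in EAKO H3K27ac (6 of 19) and 44.4% in Flox H3K27ac (12 of 27). Whole-list shares limited to gene bodies, to peaks outside promoters or to −log10 q of at least 3 were not counted. These values are therefore not shown to be particular to the 10 genes. Ranked by fold enrichment, the median percentile of the members' best promoter peaks was 37.9 in CS, 41.8 in EA+/+ and 22.3 in EC+/+, against 55.1, 75.9 and 62.4 by −log10 q. CCGGAAG read backwards was in 0% of RT, 1.64% of Flox ATAC and 1.64% of Flox H3K27ac windows, and the C/EBP motif read backwards in 0% of Flox H3K27ac windows. The core GGAA, chosen after seeing the data, was in 75.0% of RT, 46.2% of CS and 82.4% of beige windows of these regions, against 36.8%, 50.9% and 65.9% of all windows. Why these values moved was not tested, except that equal lists hold fewer peaks by construction. Single libraries, read depth that was not taken into account and few peaks per gene limit every comparison.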

Other observations

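Peaks that 2 lists shared near the 10 genes also differed in rank. All 10 beige Ets1 region peaks that met a CS peak had a higher percentile in beige, with a median difference of 16.3 points, where 63.0% of 6511 such peaks in the whole list were higher. For ATAC, 25 of 58 EAKO region peaks that met a Flox peak were higher in EAKO, with a median difference of -2.33 points, against 41.4% and -1.61 points over all such peaks. For H3K27ac, 26 of 44 were higher in EAKO than in Flox, with a median of 0.938 points, against 40.5% and -1.94 points over all.

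Of the 26 other droplet genes, 4 had no promoter peak in any list, namely Ces1d and Ces1f, carboxylesterases with lipase activity, Fitm1, a droplet formation protein of muscle, and Hsd17b13, a droplet enzyme best known from liver. The share of all genes without one in any list was not counted. An ATAC promoter peak was found at 66% of all genes in EAKO and 67.7% in Flox, so genes without one are common. Cideb, a relative of Cidec best known from liver, had an ATAC promoter peak in both EAKO and Flox and no Ets1 or H3K27ac promoter peak. Cidea had ATAC promoter peaks at −log10 q 5.99 in EAKO and 6.83 in Flox while Cidec had none.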
